A study of Mus musculus with 10 samples.

Results

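The 8 genes described here encode the ligands and receptors of the Notch pathway in the mouse: the ligands Dll4, Dll1, Jag1 and Jag2 and the receptors Notch1, Notch2, Notch3 and Notch4. They were taken by name from a table of 35275 genes, and all 8 were found and passed the filter on low values that left 13610 genes for testing. The values come from whole-lung RNA-Seq of CD1 mouse pups at postnatal day 6 (P6), while alveoli form. Dll4+/- pups carry a lacZ reporter in 1 of the 2 Dll4 alleles, and Dll4+/+ pups of the same strain carry none. Neither genotype was treated before the right lungs were taken, and each library came from 1 pup. The altered allele is carried in all cells rather than in one cell type, and the RNA of the whole lung was sequenced together. The comparison rested on 4 Dll4+/- libraries (replicates 1 to 4) and 4 Dll4+/+ libraries (replicates 3 to 6). The other 2 Dll4+/+ samples of the series were not analysed here.

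Notch signalling passes between touching cells. A ligand on one cell pulls on a receptor on its neighbour, ADAM proteases and then gamma-secretase cut the receptor, and the freed intracellular domain enters the nucleus, where it joins the DNA-binding protein RBPJ and turns on genes of the Hes and Hey families. In growing vessels Dll4 is made by endothelial cells at the tip of a sprout and holds back sprouting of the cells behind it, while Jag1 can compete with Dll4 for the same receptors. Notch1 and Notch4 are receptors of endothelial cells, Notch3 is the main receptor of mural cells around vessels, Notch2 is made by many mesenchymal and immune cells, and Jag2 and Dll1 are found on arterial endothelium among other cells.

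In whole lungs Dll4 was lower in Dll4+/- than in Dll4+/+ pups, with no overlap between the genotypes. Dll1 was also lower in all 4 Dll4+/- libraries, by a smaller margin. Jag2 had the higher mean in Dll4+/- lungs with 1 library of each genotype overlapping, and the means of Jag1 and the 4 receptors differed by less than the SD of at least 1 genotype. No member passed the threshold after adjustment over all genes tested.

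Promoter sequence is shown for the 3 members with the smallest p-values, Dll4, Dll1 and Jag2. The 250 bases before the start are written 5′ to 3′ on the strand of the gene, from RefSeq on GRCm38.p6, with each copy of GGGGCGG (known as the GC box) in capitals.
Dll4 (chr2:119325534-119325783, plus strand): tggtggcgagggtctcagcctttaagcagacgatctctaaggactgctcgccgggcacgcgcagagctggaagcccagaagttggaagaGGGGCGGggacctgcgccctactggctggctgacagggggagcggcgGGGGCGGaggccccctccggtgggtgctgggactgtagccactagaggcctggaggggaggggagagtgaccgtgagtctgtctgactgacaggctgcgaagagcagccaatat
Dll1 (chr17:15376933-15377182, minus strand): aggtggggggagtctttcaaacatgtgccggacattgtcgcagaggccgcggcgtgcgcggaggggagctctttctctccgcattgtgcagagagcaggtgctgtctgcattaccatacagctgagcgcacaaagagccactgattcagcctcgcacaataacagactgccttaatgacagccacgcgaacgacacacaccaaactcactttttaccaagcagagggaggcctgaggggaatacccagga
Jag2 (chr12:112929496-112929745, minus strand): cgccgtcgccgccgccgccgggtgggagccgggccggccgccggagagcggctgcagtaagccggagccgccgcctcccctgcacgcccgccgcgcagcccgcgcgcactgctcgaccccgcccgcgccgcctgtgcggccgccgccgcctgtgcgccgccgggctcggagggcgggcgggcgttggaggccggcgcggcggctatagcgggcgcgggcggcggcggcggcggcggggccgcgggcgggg
RefSeq windows of 300 bases (250 before and 50 after the start) matched all 8 members and gave 9 windows, since Dll1 has 2 starts. The letters were searched on both strands, did not overlap each other, and were chosen with these sequences in view. GGGGCGG stood in 4 of the 9 windows, those of Dll4, Notch1, Notch2 and Notch3, and in 23.2% of all 32851 windows. The Dll4 window held it 2 times, and neither Dll1 window nor the Jag2 window held it. The letters TATATAA, which resemble a core promoter box, were found in the Dll4 window, where they span the annotated start, and in 3.24% of all windows. TGGGAA, the core letters of RBPJ binding sites, was in 0 of the 9 windows and in 25.6% of all windows, and CACGTG, an E-box, was in 0 of the 9 and in 7.15% of all. The GC content was 63.7% in the Dll4 window, 56.3% and 62.7% in the Dll1 windows and 86.0% in the Jag2 window, against a median of 52.7% over all windows. A match is a description of these letters only.

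Levels are given in FPKM, fragments per kilobase of exon relative to library size, which allows genes of different length to be compared. Depth was alike across libraries, between 17201662 and 22927840 fragments, and 441 to 5002 recovered fragments per library, up to an unknown length factor for each gene, lay behind the members. Endothelial identity of part of the tissue was evident, with all 10 pan-endothelial markers detected in every library, the lowest being Erg at 14.5 FPKM. Dll4+/- replicate 1 stood apart in its 4 proliferation markers, which summed to an FPKM of 12.3, against 104 to 133 in the other 7 libraries. Dll4+/- replicate 4 had the lowest pan-endothelial sum, 954 FPKM against 1355 to 1707 in the others, and Dll4+/+ replicate 3 was low in genes with long transcripts. Values without these libraries are given where they bear on a member. Dll4+/- replicate 2 is labelled female but had 20.3 FPKM of the Y-linked Ddx3y and 0.273 FPKM of Xist.

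Dll4 (ENSMUSG00000027314), the targeted gene, maps to chromosome 2 (119325784 to 119335962, forward strand, GRCm38). It had 11.4, 15.6, 20.7 and 11.6 FPKM in Dll4+/- replicates 1, 2, 3 and 4, against 22.7, 25.8, 30.7 and 31.3 FPKM in Dll4+/+ replicates 3, 4, 5 and 6. The highest Dll4+/- library thus lay below the lowest Dll4+/+ library, and replicates 1 and 4, the 2 Dll4+/- pups labelled male, were lowest. Dll4 averaged 14.8 ± 4.36 FPKM in Dll4+/- lungs against 27.6 ± 4.12 FPKM in Dll4+/+ lungs (± SD, 4 libraries each). The ratio was 0.536, and a two-sided exact permutation test gave p = 0.0286, the smallest that 4 against 4 libraries allow. The log2 fold change, here always Dll4+/- minus Dll4+/+ of log2(FPKM + 1), was -0.88 with a standard error (SE) of 0.19 and a 95% confidence interval from -1.32 to -0.45. In limma, a linear model fitted across all 13610 genes, the unadjusted p was 0.00125 and the Benjamini-Hochberg adjusted p was 0.811. The difference was -0.58 without Dll4+/- replicates 1 and 4 together. In bulk tissue fewer cells of a type and less RNA per cell cannot be told apart. The exons that the reporter replaces were not named in the sources, and any reads from the rest of the altered allele are included in these values. Gm14207, on the opposite strand within the Dll4 locus, had 5.07 to 7.68 FPKM in Dll4+/- libraries against 5.39 to 7.26 FPKM in Dll4+/+ libraries, and the strand setting of the counting is not given.

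**Figure D1:**
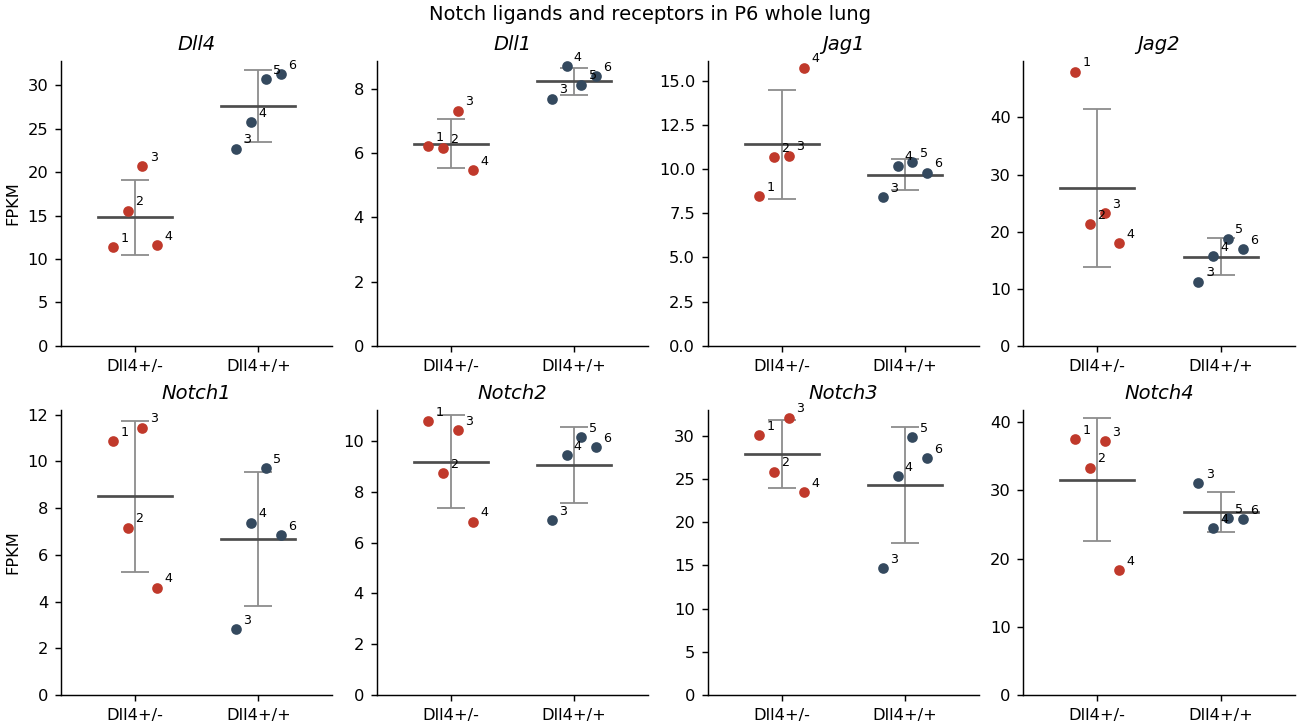
FPKM of each of the 8 members in every library, Dll4+/- on the left and Dll4+/+ on the right. Points are libraries numbered by replicate, horizontal bars are means and whiskers are SD (n = 4 each). Dll4 and Dll1 are the members whose genotypes do not overlap, and Jag2 in Dll4+/- replicate 1 reaches 48.0 FPKM.

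Dll1 (ENSMUSG00000014773, chromosome 17, 15367354 to 15376872, reverse strand) is the other Delta-type ligand measured. It had 6.21, 6.14, 7.31 and 5.47 FPKM in Dll4+/- replicates 1 to 4, against 7.69, 8.69, 8.12 and 8.39 FPKM in Dll4+/+ replicates 3 to 6. The genotypes did not overlap, and the nearest libraries, Dll4+/- replicate 3 and Dll4+/+ replicate 3, were 7.31 and 7.69 FPKM. Dll1 averaged 6.28 ± 0.761 FPKM in Dll4+/- lungs against 8.22 ± 0.429 FPKM in Dll4+/+ lungs (± SD, 4 libraries each), and the ratio was 0.764 (two-sided exact permutation p = 0.0286). On the log2 scale the difference was -0.35 (SE 0.11), with a limma unadjusted p of 0.0123 and an adjusted p of 0.811. It stayed between -0.41 and -0.29 with any 1 library left out, and was -0.26 without Dll4+/- replicates 1 and 4. Dll1 had 441 to 597 recovered fragments per library, up to an unknown length factor. Its coefficient of variation was 12.1% in Dll4+/- libraries and 5.21% in Dll4+/+ libraries. Dll3, the remaining Delta-type gene, which blocks Notch from within the cell, was at or below 0.0666 FPKM in Dll4+/- libraries and 0.0610 FPKM in Dll4+/+ libraries and was not tested.

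Jag2 (ENSMUSG00000002799, chromosome 12, 112907819 to 112929776, reverse strand) was the most variable ligand. It had 48.0, 21.3, 23.2 and 17.96 FPKM in Dll4+/- replicates 1 to 4, against 11.2, 15.7, 18.8 and 16.9 FPKM in Dll4+/+ replicates 3 to 6. Only Dll4+/- replicate 4 fell within the Dll4+/+ range, and Dll4+/- replicate 1 lay far above every other library. Jag2 averaged 27.6 ± 13.8 FPKM in Dll4+/- lungs against 15.6 ± 3.21 FPKM in Dll4+/+ lungs (± SD, 4 libraries each), and the ratio was 1.77 (two-sided exact permutation p = 0.0571). The difference on the log2 scale was 0.70 (SE 0.28), with a limma unadjusted p of 0.0347 and an adjusted p of 0.811. It was 0.41 without Dll4+/- replicate 1, with an unadjusted limma p of 0.0425, and 0.56 without Dll4+/+ replicate 3, with an unadjusted limma p of 0.104. In Dll4+/- replicate 1 the 6 arterial markers summed to 480 FPKM, against 199 to 239 in the other Dll4+/- libraries and 229 to 271 in Dll4+/+ libraries. The arterial sum was carried by Sox17, Gja4 and Hey1 in that library, at 179, 129 and 86.0 FPKM. Gja5, another arterial marker, had 23.1, 30.3, 29.7 and 24.4 FPKM in Dll4+/- replicates 1 to 4, against 36.4 to 39.6 FPKM in Dll4+/+ libraries. The 6 leukocyte markers also summed highest in that library, at 1792 FPKM against 677 to 1040 in the other Dll4+/- libraries and 715 to 1135 in Dll4+/+ libraries, with the neutrophil gene S100a8 at 540 FPKM against 36.5 to 65.8 in the other 7, while the pan-leukocyte gene Ptprc was lowest there at 4.56 FPKM. The part of these shifts in the Jag2 value was not tested.

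Jag1 (ENSMUSG00000027276, chromosome 2, 137081456 to 137116644, reverse strand), the ligand that can compete with Dll4, did not differ beyond the spread in whole lung. It had 8.45, 10.7, 10.8 and 15.7 FPKM in Dll4+/- replicates 1 to 4, against 8.40, 10.2, 10.4 and 9.78 FPKM in Dll4+/+ replicates 3 to 6. Apart from Dll4+/- replicate 4, all values lay between 8.40 and 10.8 FPKM. Jag1 averaged 11.4 ± 3.08 FPKM in Dll4+/- lungs against 9.69 ± 0.894 FPKM in Dll4+/+ lungs (± SD, 4 libraries each), a difference within the spread (two-sided exact permutation p = 0.314). Its log2 fold change was 0.19 (SE 0.17, 95% confidence interval -0.20 to 0.57), 0.03 without Dll4+/- replicate 4, the highest library, and 0.31 without Dll4+/- replicate 1, with an unadjusted limma p of 0.0686.

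The 4 receptors overlapped between genotypes. Notch1 (ENSMUSG00000026923, chromosome 2, 26457903 to 26516663, reverse strand), the receptor best known for endothelial fate, had 10.9, 7.16, 11.4 and 4.59 FPKM in Dll4+/- replicates 1 to 4, against 2.82, 7.37, 9.71 and 6.83 FPKM in Dll4+/+ replicates 3 to 6. It was the most variable receptor, with a coefficient of variation of 38.0% in Dll4+/- and 42.8% in Dll4+/+ libraries. With a log2 fold change of 0.33 (SE 0.35) the limma adjusted p was 0.815, and the difference ran from 0.03 without Dll4+/+ replicate 3, the lowest library, to 0.56 without Dll4+/- replicate 4. Leaving out Dll4+/+ replicate 5 gave 0.52, and leaving out replicate 1 or 3 of Dll4+/- gave 0.20 or 0.18.

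Notch4 (ENSMUSG00000015468, chromosome 17, 34564268 to 34588503, forward strand), a receptor largely confined to endothelium, had 37.5, 33.3, 37.2 and 18.3 FPKM in Dll4+/- replicates 1 to 4, against 31.0, 24.5, 25.9 and 25.8 FPKM in Dll4+/+ replicates 3 to 6. Dll4+/- replicates 1, 2 and 3 lay above all Dll4+/+ libraries, and replicate 4 lay below them all. The difference of 0.18 on the log2 scale (SE 0.22) had a limma adjusted p of 0.826. Without Dll4+/- replicate 4 the difference was 0.42, with a limma unadjusted p of 0.00592 and a limma adjusted p of 0.694 over all genes. It was 0.09 without Dll4+/- replicate 1 and also without Dll4+/- replicate 3. Dll4+/- replicate 4 also had the lowest pan-endothelial sum. Relative to the mean log2 FPKM of the 10 markers within each library, the log2 level of Notch4 was -1.68 ± 0.17 in Dll4+/- lungs and -1.87 ± 0.17 in Dll4+/+ lungs (± SD, 4 libraries each, two-sided exact permutation p = 0.171). This ratio was added after the values were seen.

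Notch3 (ENSMUSG00000038146, chromosome 17, 32120820 to 32166852, reverse strand), the receptor of pericytes and smooth muscle, had 30.1, 25.8, 32.1 and 23.5 FPKM in Dll4+/- replicates 1 to 4, against 14.7, 25.3, 29.9 and 27.4 FPKM in Dll4+/+ replicates 3 to 6. Apart from Dll4+/+ replicate 3 the genotypes covered nearly the same range. The Notch3 difference on the log2 scale was 0.23 (SE 0.21), with a limma adjusted p of 0.812, and 0.01 without Dll4+/+ replicate 3. Notch2 (ENSMUSG00000027878, chromosome 3, 98013527 to 98150361, forward strand) had 10.8, 8.74, 10.4 and 6.83 FPKM in Dll4+/- replicates 1 to 4, against 6.88, 9.45, 10.2 and 9.77 FPKM in Dll4+/+ replicates 3 to 6. Its log2 fold change of 0.01 (SE 0.17, 95% confidence interval -0.36 to 0.39) was the nearest to 0 of the members and changed sign in several alternatives.

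Of the 8 members, 0 passed an adjusted p of 0.05, as did 0 of all 13610 genes (0%). Unadjusted limma p-values lay under 0.05 for 3 of the 8, against 3.36% of all genes. Of these, 1 member (Jag2) was higher in Dll4+/- lungs, against 1.45% of all genes, and 2 (Dll4 and Dll1) were lower, against 1.91%. The genotypes did not overlap, with Dll4+/- lower, for 2 of the 8 members, Dll4 and Dll1, against 1.69% of all genes, and did not overlap with Dll4+/- higher for 0 of the 8, against 1.43%. Dll4 was changed by design, which leaves Dll1 and Jag2 among the other 7. The median log2 fold change was 0.19 over the members and -0.02 over all genes tested.

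**Figure D2:**
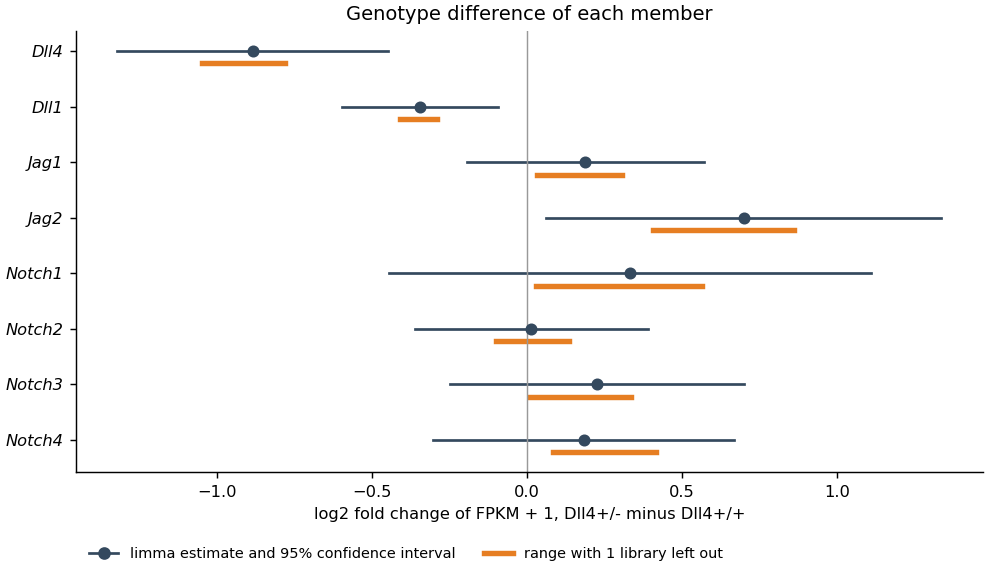
Log2 fold change of FPKM + 1, Dll4+/- minus Dll4+/+, for each member. Dark points and lines are limma estimates with 95% confidence intervals over 8 libraries, and orange bars span the estimates with any 1 library left out. The intervals of Dll4, Dll1 and Jag2 exclude 0 before adjustment, and those of Jag1 and the 4 receptors include it.

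The summed FPKM of the 4 ligands differed by less than its SD, with 60.1 ± 10.4 in Dll4+/- lungs and 61.2 ± 8.15 in Dll4+/+ lungs (± SD, 4 libraries each, two-sided exact permutation p = 0.914). Dll4 made up 15.3%, 29.0%, 33.4% and 22.9% of the sum in Dll4+/- replicates 1 to 4, against 45.4%, 42.7%, 45.2% and 47.1% in Dll4+/+ replicates 3 to 6. It was the largest of the 4 shares in no Dll4+/- library and in every Dll4+/+ library. Mean shares were 25.2 ± 7.83% in Dll4+/- lungs and 45.1 ± 1.81% in Dll4+/+ lungs (± SD, 4 libraries each, two-sided exact permutation p = 0.0286). Dll4 was changed by design, so this p-value is not a result separate from that of Dll4 itself.

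Jag2 took 35.4% to 64.9% of the ligand sum in Dll4+/- libraries, against 22.4% to 27.6% in Dll4+/+ libraries, and was above Dll4 in all 4 Dll4+/- libraries and below it in all 4 Dll4+/+ libraries. The share of Dll1 was 8.39% to 11.8% in Dll4+/- and 11.9% to 15.4% in Dll4+/+ libraries, and that of Jag1 was 11.4% to 31.0% in Dll4+/- and 14.7% to 16.9% in Dll4+/+ libraries. The shares of a library add up to 100%, so the others must move when Dll4 does. The receptor sum was 77.2 ± 17.5 FPKM in Dll4+/- lungs and 66.8 ± 8.50 FPKM in Dll4+/+ lungs (± SD, 4 libraries each, two-sided exact permutation p = 0.343), and Notch3 and Notch4 together gave the larger part of it in each library.

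**Figure D3:**
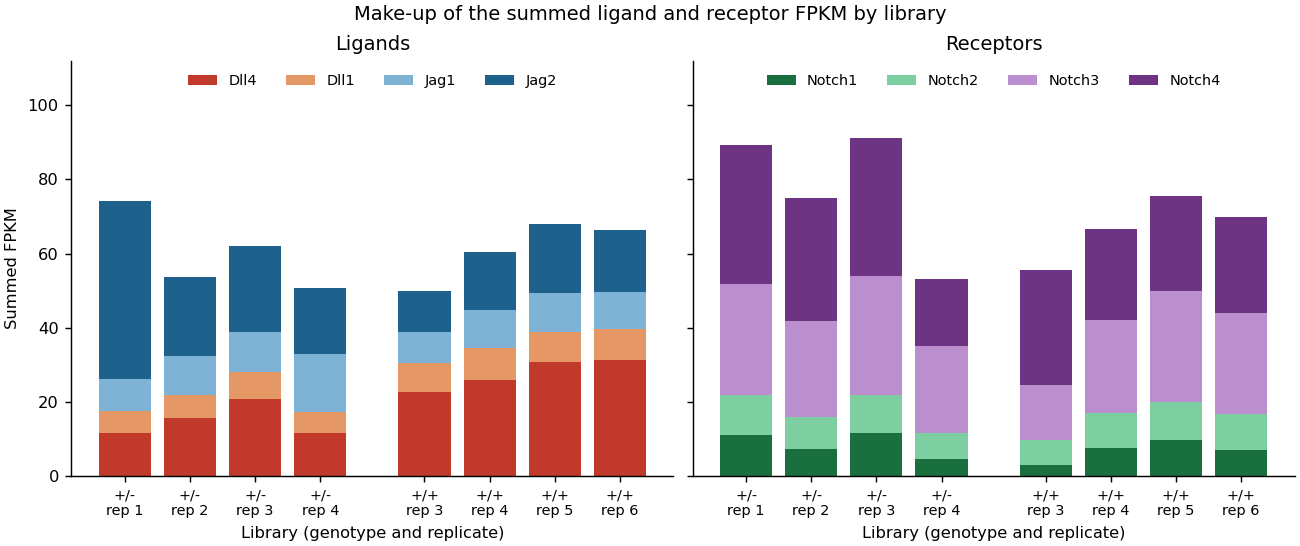
Summed FPKM of the 4 ligands (left panel) and the 4 receptors (right panel) in each library, Dll4+/- libraries left of Dll4+/+ libraries, with each gene as a coloured segment. Ligand sums run from 50.8 to 74.1 FPKM in Dll4+/- libraries and from 49.99 to 68.0 FPKM in Dll4+/+ libraries, while the Dll4 segment is smaller in each Dll4+/- library.

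Ratios within a library do not depend on how the library was scaled. The log2 ratio of Dll4 to Jag1, the pair of ligands that compete for the same receptors, was 0.43, 0.54, 0.94 and -0.44 in Dll4+/- replicates 1 to 4, against 1.43, 1.34, 1.56 and 1.68 in Dll4+/+ replicates 3 to 6. Jag1 exceeded Dll4 in Dll4+/- replicate 4 alone. The mean was 0.37 ± 0.58 in Dll4+/- lungs and 1.505 ± 0.15 in Dll4+/+ lungs (± SD, 4 libraries each), a difference of -1.14 (two-sided exact permutation p = 0.0286). Relative to Jag2 the log2 ratio of Dll4 was -0.83 ± 0.85 in Dll4+/- lungs and 0.83 ± 0.15 in Dll4+/+ lungs, a difference of -1.67 with the same exact p, in a comparison added after both genes had been seen. Dll4 was changed by design and was lower without overlap on its own. It enters both ratios, so neither p-value is a result separate from that of Dll4.

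Dll4 was also set against the mean log2 FPKM of the 10 pan-endothelial markers, since it is an endothelial transcript. The log2 difference was -3.44, -2.69, -2.36 and -2.55 in Dll4+/- replicates 1 to 4, against -2.07, -1.88, -1.73 and -1.64 in Dll4+/+ replicates 3 to 6. All Dll4+/- libraries lay below all Dll4+/+ libraries, with means of -2.76 ± 0.47 in Dll4+/- lungs and -1.83 ± 0.19 in Dll4+/+ lungs (± SD, 4 libraries each, two-sided exact permutation p = 0.0286). The difference was -0.93, and its p-value is likewise not separate from that of Dll4 itself.

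**Figure D4:**
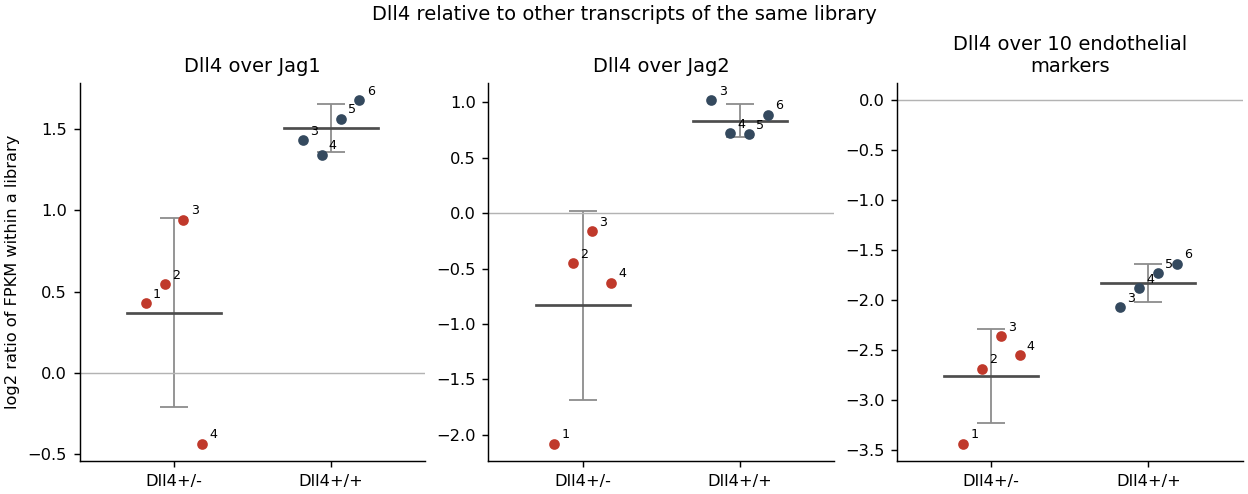
Log2 ratio of Dll4 FPKM to Jag1 FPKM and to Jag2 FPKM within each library, Dll4+/- on the left and Dll4+/+ on the right. The last panel is log2 Dll4 FPKM minus the mean log2 FPKM of 10 pan-endothelial markers. Points are libraries numbered by replicate, bars are means and whiskers are SD (n = 4 each). The genotypes do not overlap in any of the 3 panels, and the ratio to Jag2 is below 0 in all Dll4+/- libraries and above 0 in all Dll4+/+ libraries.

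In Dll4+/+ lungs Dll4 had the highest mean FPKM of the members, 27.6, followed by Notch4 with 26.8, Notch3 with 24.3, Jag2 with 15.6, Jag1 with 9.69, Notch2 with 9.07, Dll1 with 8.22 and Notch1 with 6.68. By library, Dll4 ranked 4, 4, 4 and 5 of the 8 in Dll4+/- replicates 1 to 4, against 2, 1, 1 and 1 in Dll4+/+ replicates 3 to 6. Neighbours in the order of Dll4+/+ means were compared over the 8 libraries with a two-sided exact sign-flip permutation test, adjusted over 7 pairs. Both genotypes entered this test, so it does not speak to the Dll4+/+ order alone: Dll4 was above Notch4 in 0 of 4 Dll4+/- and 3 of 4 Dll4+/+ libraries, and Dll1 above Notch1 in 1 of 4 Dll4+/- and 3 of 4 Dll4+/+ libraries. None of the 7 pairs passed an adjusted p of 0.05, which no pair could have done alone. Jag2 over Jag1, higher in 8 of 8 libraries with a mean log2 ratio of 0.94, had an exact sign-flip p of 0.00781. That is the smallest that 8 libraries allow, and it became 0.0547 after adjustment. Without Dll4+/- replicate 1 the pairs Notch3 over Jag2, Jag2 over Jag1 and Jag1 over Notch2 passed (adjusted exact p = 0.0365 each). All of them shared an exact p of 0.0156, the smallest that 7 libraries allow. A single pair at that exact p would not have passed.

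The pups were compared by labelled sex. In Dll4+/- replicate 2, labelled female, Ddx3y and Xist lay within the range of the libraries labelled male. The female-labelled contrast and the interaction therefore do not compare the sexes. The log2 fold change of Dll4 was -0.62 (SE 0.21) in pups labelled female and -1.15 (SE 0.21) in pups labelled male, 2 against 2 libraries each. The interaction of 0.53 (SE 0.29) had a limma adjusted p of 0.685, and 0 of the 8 members passed, against 0.022% of all genes. The Dll4+/- pups labelled male are replicates 1 and 4, the libraries that stood apart.

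Notch1, Notch2 and Notch3 have transcripts among the longest in the lung, with the longest annotated form at 9488, 10500 and 8016 bases, longer than in 96.8%, 97.7% and 94.5% of genes tested. In Dll4+/+ replicate 3 genes in the longest of 5 equal-sized bins by transcript length lay at a median of -0.25 on the log2 scale from each gene's mean over the 8 libraries, and those in the shortest bin at 0.27. In that library Notch1 lay at -1.08, Notch3 at -0.76 and Notch2 at -0.35. Notch4, which at 6591 bases also falls in the longest bin, lay at 0.12 there. In Dll4+/- replicate 1 the trend ran with GC content instead, at -0.21 in the bin of lowest and 0.05 in the bin of highest GC content. With the trends in length and GC content taken off each library, an alternative added after the data were seen, the log2 fold change was -0.94 for Dll4, -0.36 for Dll1, 0.62 for Jag2 and 0.16 for Jag1. It was then 0.21 for Notch1, -0.07 for Notch2, 0.10 for Notch3 and 0.08 for Notch4. Any further part of transcript length in these values was not tested.

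**Figure D5:**
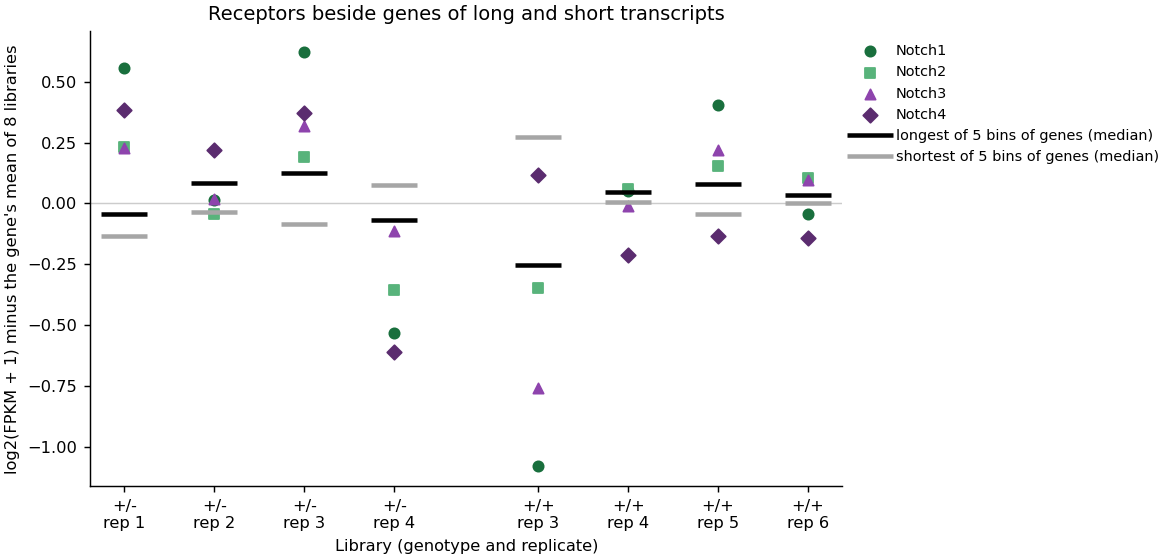
Deviation of the 4 receptors from their own mean over 8 libraries, in log2(FPKM + 1), by library, Dll4+/- left of Dll4+/+. Black and grey dashes are the medians of the longest and shortest of 5 equal-sized bins of genes by transcript length. In Dll4+/+ replicate 3 the long genes lie at -0.25 and Notch1 at -1.08.

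The genes whose pattern over the 8 libraries was most like that of a member, once the mean of each genotype was taken off, are given by Pearson r as a description, since these libraries share depth, scaling and the trends above. The genes most like Dll4 were Ascc3, Pde3b and Adamtsl3 (r of 0.98 to 0.99), and for Dll1 Cnot1, Ptar1 and Lama2 (0.97 to 0.99). Jag1 was most like the mitochondrially encoded mt-Nd4 and mt-Cytb and Yipf6 (all 0.99). Like Jag1, mt-Nd4 was highest in Dll4+/- replicate 4, at 2262 FPKM against 483 to 824 in the other Dll4+/- libraries and 566 to 887 in Dll4+/+ libraries. Jag2 was most like Elmo1, Snrk and Adarb1 (r above 0.99), and Snrk, a kinase of endothelial and other cells, had 88.1 FPKM in Dll4+/- replicate 1 against 31.5 to 43.5 in the other Dll4+/- libraries and 21.0 to 38.5 in Dll4+/+ libraries.

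Among receptors Notch1 was most like Elmo2, Dst and Vti1a, Notch2 like Klf7, Ttc7b and Wdr48, Notch3 like Shc1, Mical2 and Zfyve26, and Notch4 like Ppp2r5c, Igfbp7 and N4bp3 (r of 0.98 or above). Without Dll4+/- replicate 1 the r of these genes with their members stayed at 0.97 or above. Between members, r was 0.97 for Notch1 and Notch2, 0.94 for Notch1 and Notch3, and -0.93 for Jag1 and Notch4. It was 0.76 for Dll4 and Dll1. For Dll4 and Jag2 it was -0.07 over the 8 libraries and 0.82 without Dll4+/- replicate 1.

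Of 41 other genes of the pathway, 38 passed the filter. None passed an adjusted p of 0.05, and 1 was under an unadjusted p of 0.05, against 3.36% of all genes, so the count was no higher than the background. Genotypes without overlap were found in 0 of them, against 1.69% of all genes lower and 1.43% higher in Dll4+/- lungs. Their median log2 fold change was 0.01. That 1 gene was Rbpj, the DNA-binding partner of the cleaved receptor, which had 8.04, 7.79, 10.5 and 6.42 FPKM in Dll4+/- replicates 1 to 4, against 9.28, 10.8, 11.1 and 11.5 FPKM in Dll4+/+ replicates 3 to 6. Only Dll4+/- replicate 3 reached into the Dll4+/+ range, and the difference of -0.36 on the log2 scale (SE 0.15) had a limma unadjusted p of 0.0333 and an adjusted p of 0.811.

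Among the 15 genes that process ligands and receptors, 6 had positive and 9 negative fold changes, and 0 were under an unadjusted p of 0.05. Adam10, the main sheddase of Notch, differed by -0.02 (SE 0.12) on the log2 scale, and the related Adam17 by -0.01 (SE 0.10). The 3 Fringe glycosyltransferases, which set the response of receptors to Delta against Jagged ligands, had log2 fold changes of 0.00 for Lfng, -0.11 for Mfng and 0.04 for Rfng.

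Of 5 target genes tested, 0 were under an unadjusted p of 0.05. Nrarp, a feedback inhibitor, had 15.3, 26.3, 42.3 and 31.5 FPKM in Dll4+/- replicates 1 to 4, against 31.2, 37.4, 46.9 and 43.7 FPKM in Dll4+/+ replicates 3 to 6 (log2 fold change -0.52, SE 0.27). Hes1 averaged 65.2 ± 14.5 FPKM in Dll4+/- lungs against 78.6 ± 9.67 FPKM in Dll4+/+ lungs, and Heyl averaged 16.3 ± 1.51 FPKM in Dll4+/- lungs against 18.2 ± 1.84 FPKM in Dll4+/+ lungs (± SD, 4 libraries each). Hey1, the arterial target, had 86.0 FPKM in Dll4+/- replicate 1 against 24.03 to 27.1 in the other Dll4+/- libraries and 22.4 to 31.0 in Dll4+/+ libraries. Hey2 averaged 3.06 ± 0.402 FPKM in Dll4+/- lungs against 2.53 ± 0.350 FPKM in Dll4+/+ lungs. The 9 inhibitors and noncanonical ligands tested all had positive fold changes, against 45.9% of all genes, with a median of 0.19 and 0 under an unadjusted p of 0.05. For 7 of the 9, Dll4+/- replicate 1 was the highest of the 8 libraries, against 20.9% of all genes. Without that library all 9 fold changes were still positive, against 52.0% of all genes, with a median of 0.07. Among the 9, Dlk1, a ligand-like protein without the Delta domain, had 8.43 to 22.7 FPKM in Dll4+/- libraries and 8.88 to 13.4 FPKM in Dll4+/+ libraries.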

How the data were processed

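Whole-lung RNA of P6 CD1 pups was measured by paired-end poly-A RNA-Seq. The authors deposited 1 table of FPKM values, made from reads aligned with STAR to GRCm38.p4 per the submitters' processing notes, with no tool versions. The table has columns for 8 of 10 samples, and its ratios and p-values of the authors were not used. Zeros replaced by 0.005 in 239 genes were set back to 0. Fragments recovered from FPKM steps were whole within 0.01 for 100% of the 13610 genes tested, but only 1454 at the annotated length, so fragment numbers of the others carry an unknown length factor, equal in every library. Confidence intervals are those of limma and cover the spread between libraries.

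Genes that reached an FPKM of 1 in 4 libraries were tested on log2(FPKM + 1) with limma 3.58.1 (R 4.3.3) with a mean-variance trend, and p-values were adjusted by Benjamini-Hochberg over all of them with a threshold of 0.05. Log2 fold changes on this scale understate changes of low genes. The test was written for 6 Dll4+/+ samples and run on 4. Single values were compared by exact permutation (scipy 1.17.1). The limma fit was tested on simulated data whose spread was set below that of these libraries, so that test does not gauge its power here. Libraries came from separate pups, and litters were not modelled. Positions are from GENCODE on GRCm38.

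The members and lists were chosen with earlier results of these data known. Named were the 8 members, pathway genes under an unadjusted limma p of 0.05, 14 pathway genes in any case (1 is not reported here), and the 3 genes of highest r with each member. Alternatives were another pseudocount, filters, median-of-ratios scaling, library weights, voom on recovered fragments, labelled sex, a replicate block, libraries left out, and removal of length and GC trends.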

Additional observations from a re-analysis of the deposited data

Results flagged for a closer look

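A library far from the other 3 of its genotype was looked for in 120 groups of 4 values (members, named genes, shares and ratios). The rule was a gap to the nearest library that exceeds Dixon's 95% critical value as a share of the range, and 12 groups met it. Shares of 1 sum and genes picked for their likeness to a member are not independent, so this count cannot be set against chance. None of the members' FPKM values met the rule, though Jag2 in Dll4+/- replicate 1, at 48.0 FPKM, fell just short of it. In Dll4+/- replicate 1, Hey1 had 86.0 FPKM and Jag2 took 64.9% of the ligand sum. In Dll4+/- replicate 4, Notch3 took 44.2% of the receptor sum and Ppp2r5c had 19.8 FPKM. In Dll4+/+ replicate 3, Notch4 took 56.0% and Notch3 26.5% of the receptor sum, the Fringe genes Mfng and Rfng had 41.2 and 16.1 FPKM, mt-Nd4 and mt-Cytb had 566 and 1657 FPKM, and Ttc7b and N4bp3 had 12.3 and 33.7 FPKM.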

How the results depend on the processing

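Dll4 kept its direction and stayed above the adjusted threshold in all 18 alternatives, with a log2 fold change from -1.05 to -0.58 (adjusted p of 0.168 or above, the lowest with library weights), and from -1.05 to -0.78 with 1 library left out. No other member passed in any alternative, and Dll1, Jag1, Jag2, Notch1 and Notch3 kept their direction in all 18. Notch2 was negative with library weights (-0.043) and with length and GC trends removed (-0.074), and ranged from -0.10 to 0.13 with 1 library left out, negative without replicates 1 or 3 of Dll4+/- or 3 of Dll4+/+. For the 2 replicate numbers shared by the genotypes, deviations from the genotype means had r of -0.23 and -0.06, too few values to tell whether the numbers pair samples. In a fit with a replicate block, only the libraries of these 2 shared numbers inform the genotype difference. There Notch4 was -0.072 and Dll4 -0.61. The 16 genes that passed for genotype in it rest on those libraries alone and are not comparable with the other counts. Library weights gave 3 genes, and 0 passed in the other 16 alternatives. At an unadjusted p of 0.05, 457 genes became 933 with no filter, 292 with a mean FPKM of 5 or more, 775 with library weights, and 230 to 957 with 1 library left out (957 and 707 when Dll4+/- replicates 2 and 3 were left out, 262 and 230 when Dll4+/+ replicates 4 and 3 were), and the cause was not tested.

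With 1 library left out, the difference between genotypes ranged from -1.33 to -0.87 for Dll4 against Jag1, -1.89 to -1.25 for Dll4 against Jag2, -1.06 to -0.70 for Dll4 against endothelial markers and -22.7 to -16.7 percentage points for the Dll4 share. Without Dll4+/- replicates 1 and 4 these were -0.76, -1.14, -0.69 and -13.9. Fewer libraries raise the smallest exact p to 0.0571 and 0.133, so none could pass. The count of neighbouring pairs past the threshold was 0 to 3 with 1 library left out, where no pair could pass alone. The interaction was not refitted with libraries left out. Fragment numbers carry an unknown length factor, so no limit from depth is given for the members.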
